A study of Homo sapiens with 4 samples.

Results

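Heat shock proteins, their co-chaperones and the cytosolic chaperonin CCT were followed across 4 RNA sequencing libraries of HepG2, a line derived from a human liver tumour in which many hepatocyte genes stay on. The 39 member genes were taken by gene symbol from a table of 23368 symbols, and all 39 had reads in every library. They comprised 2 heat shock factors, 6 genes of the HSP70 and HSP110 family, 6 J-domain co-chaperones, 3 BAG co-chaperones, 8 genes of HSP90 and its co-chaperones, 8 CCT subunits, 5 mitochondrial chaperones and 1 small heat shock protein. Of these, 38 had a mean normalized count of at least 20, and HSPA14, with a mean of 19.9, did not. A mean of at least 200 was reached by 22.

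The shCtrl library came from cells carrying a lentiviral control hairpin, and the shPJA1 library from cells carrying a lentiviral hairpin against PJA1, a RING-type ubiquitin ligase. The TGFb1 library was labelled as treated with the cytokine TGF-beta1, for which the protocol states a dose of 200 pM and a time of 1 hour. The labels do not say whether these cells also carried the control hairpin. The last library is titled shPJA/TGFb1, but water is given as its treatment. It is named here the double-titled library, and the comparisons follow that title, so a pair that includes it compares the named conditions only if the title is right. Each condition had 1 library, so no difference between libraries has a replicate check, and clones or pooled cultures are not described in the labels.

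Chaperones of the HSP70 class bind exposed hydrophobic stretches of unfolded proteins in a cycle of ATP binding and hydrolysis. J-domain proteins bring clients and speed hydrolysis, and nucleotide exchange factors such as the BAG and HSP110 proteins reset the cycle. HSP90 acts later on kinases and steroid receptors, and CCT, a ring-shaped chamber, folds actin and tubulin. Under heat or other proteotoxic stress the transcription factor HSF1 forms trimers that bind heat shock elements, repeats of the unit NGAAN in alternating orientation, upstream of many of these genes.

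The promoters of 6 members chosen by name are shown first, because the heat shock element is the regulatory sequence these genes are known for. All 6 hold the letters marked below. The windows of HSPH1, BAG3 and PTGES3, which also differed between libraries, hold none and are not shown. DNAJB1, HSPA8 and HSP90AB1 were higher in both libraries titled with TGFb1 than in their partners, HSP90AA1 went opposite ways in those pairs, CHORDC1 was highest in shPJA1, and HSPD1 was lowest in the double-titled library. Each window runs from 250 bases before to 50 bases after a RefSeq gene start on GRCh38.p14, written 5′ to 3′ on the strand of the gene. Where a gene has several windows, as DNAJB1, HSP90AB1, HSP90AA1 and HSPD1 do, the window with the most matches is shown. For HSP90AB1, HSP90AA1 and HSPD1 it is the window of the start furthest downstream. Capitals mark GAANNTTC or TTCNNGAA, which are 2 neighbouring units, and their 3-unit extensions, GAANNTTC followed by NNGAA or TTCNNGAA followed by NNTTC.
DNAJB1, chr19:14518348-14518647, minus strand: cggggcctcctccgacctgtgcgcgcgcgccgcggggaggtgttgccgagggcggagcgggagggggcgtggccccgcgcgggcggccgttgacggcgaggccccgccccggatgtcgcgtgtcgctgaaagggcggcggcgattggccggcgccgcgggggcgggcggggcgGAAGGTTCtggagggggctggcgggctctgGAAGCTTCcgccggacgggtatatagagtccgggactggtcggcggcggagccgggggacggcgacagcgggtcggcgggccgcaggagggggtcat
HSPA8, chr11:123062087-123062386, minus strand: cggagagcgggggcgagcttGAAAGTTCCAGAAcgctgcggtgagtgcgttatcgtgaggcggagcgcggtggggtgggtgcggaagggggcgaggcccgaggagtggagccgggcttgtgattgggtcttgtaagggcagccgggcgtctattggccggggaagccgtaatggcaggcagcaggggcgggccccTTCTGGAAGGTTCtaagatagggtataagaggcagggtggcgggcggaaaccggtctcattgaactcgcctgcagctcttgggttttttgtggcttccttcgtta
HSP90AB1, chr6:44247693-44247992, plus strand: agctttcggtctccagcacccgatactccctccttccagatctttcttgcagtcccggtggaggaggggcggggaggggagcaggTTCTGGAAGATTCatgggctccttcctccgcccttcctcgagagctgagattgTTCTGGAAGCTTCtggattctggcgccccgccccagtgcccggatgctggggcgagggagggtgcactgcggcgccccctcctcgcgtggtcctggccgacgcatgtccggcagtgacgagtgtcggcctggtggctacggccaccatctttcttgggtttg
HSP90AA1, chr14:102086995-102087294, minus strand: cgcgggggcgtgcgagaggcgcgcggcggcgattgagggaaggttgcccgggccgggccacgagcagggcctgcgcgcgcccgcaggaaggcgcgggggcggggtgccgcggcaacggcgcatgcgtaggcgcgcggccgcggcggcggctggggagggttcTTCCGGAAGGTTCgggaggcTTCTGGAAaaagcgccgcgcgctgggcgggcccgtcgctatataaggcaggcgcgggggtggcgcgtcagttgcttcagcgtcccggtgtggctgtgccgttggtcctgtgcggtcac
CHORDC1, chr11:90223000-90223299, minus strand: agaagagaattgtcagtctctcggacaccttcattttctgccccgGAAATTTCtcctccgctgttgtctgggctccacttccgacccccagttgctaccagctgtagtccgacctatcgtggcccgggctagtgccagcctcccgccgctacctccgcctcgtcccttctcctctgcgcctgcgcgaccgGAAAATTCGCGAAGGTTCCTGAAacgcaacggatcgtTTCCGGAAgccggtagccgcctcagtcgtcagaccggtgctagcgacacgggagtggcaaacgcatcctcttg
HSPD1, chr2:197499791-197500090, minus strand: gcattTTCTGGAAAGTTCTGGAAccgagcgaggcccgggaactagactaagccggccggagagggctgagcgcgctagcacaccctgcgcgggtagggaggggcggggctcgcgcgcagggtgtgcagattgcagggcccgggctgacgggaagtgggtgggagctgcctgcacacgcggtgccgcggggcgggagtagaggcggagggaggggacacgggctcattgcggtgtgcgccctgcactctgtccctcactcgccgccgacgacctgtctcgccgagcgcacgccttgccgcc

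RefSeq promoter windows were found for 35 of the 39 members, with 48 windows in all, and none was found for HSF1, HSPA14, FKBP4 and CCT6A. Each 2-unit motif is its own reverse complement, the 3-unit motifs are reverse complements of each other, and every 3-unit match holds 2-unit matches within it. A 2-unit match lay in a window of 18 of the 35 members (51.4%), beside 16.2% of 27305 genes with windows of the same length. A 3-unit match lay in windows of 7 of the 35 (20%), beside 0.608% of all genes. These 7 were HSPA8, DNAJA1, DNAJB6, HSP90AA1, HSP90AB1, CHORDC1 and HSPD1. Of the 3 windows of DNAJB1, 2 held a 2-unit match and 0 a 3-unit match. In the other windows of HSP90AB1, HSP90AA1 and HSPD1 no match was found, and the windows of BAG3 and HSPH1 held neither. A match describes letters in the window and is not a measured binding site.

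Total reads on genes ranged from 990698 in the double-titled library to 2848665 in TGFb1, and the members took 1.07% to 1.19% of them. Normalized counts are reads divided by a size factor per library, with no scaling by gene length. PJA1 was at 50.3 in shCtrl, 15.3 in shPJA1, 38.2 with TGFb1 and 9.78 in the double-titled library, so it was lower in both libraries titled with its hairpin. SMAD7, a feedback inhibitor that TGF-beta1 induces, was at 83.0, 69.3, 168 and 158 in the same order, higher in both libraries titled with TGFb1. All 9 hepatocyte markers had reads in every library, with summed normalized counts of 32648 to 38257. Markers of other cells summed to 3.60 to 8.15 for 5 fibroblast genes, 0 to 3.51 for 4 endothelial genes and 96.2 to 176 for 5 leukocyte genes. PTPRC and CD3E, DCN and LUM, and CDH5 and KDR were at 0 throughout, and CD68 made up nearly all of the leukocyte sum. In bulk RNA, fewer cells of a type and less RNA per cell cannot be told apart.

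Levels between genes were compared as mean normalized counts per kilobase of the GENCODE transcript, a scale that depends on which transcript the cells use. The constitutive HSP90 gene HSP90AB1 stood highest at 973 per kilobase, followed by the constitutive HSP70 gene HSPA8 at 962. The inducible HSP90AA1 was at 434 and the J-domain gene DNAJA1 at 372. Among the CCT subunits the level ran from 116 for CCT8 to 245 for CCT3. The lowest were HSPA14, at 4.13, and the heat shock factor HSF2, at 10.9. The inducible HSP70 genes HSPA1A and HSPA1B were at 58.5 and 32.2 per kilobase. They lay below HSPA8, HSP90AB1, every CCT subunit, HSPD1, at 238, and HSPA9, at 228. Some constitutive members lay lower still, such as BAG1, at 23.1.

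**Figure D1:**
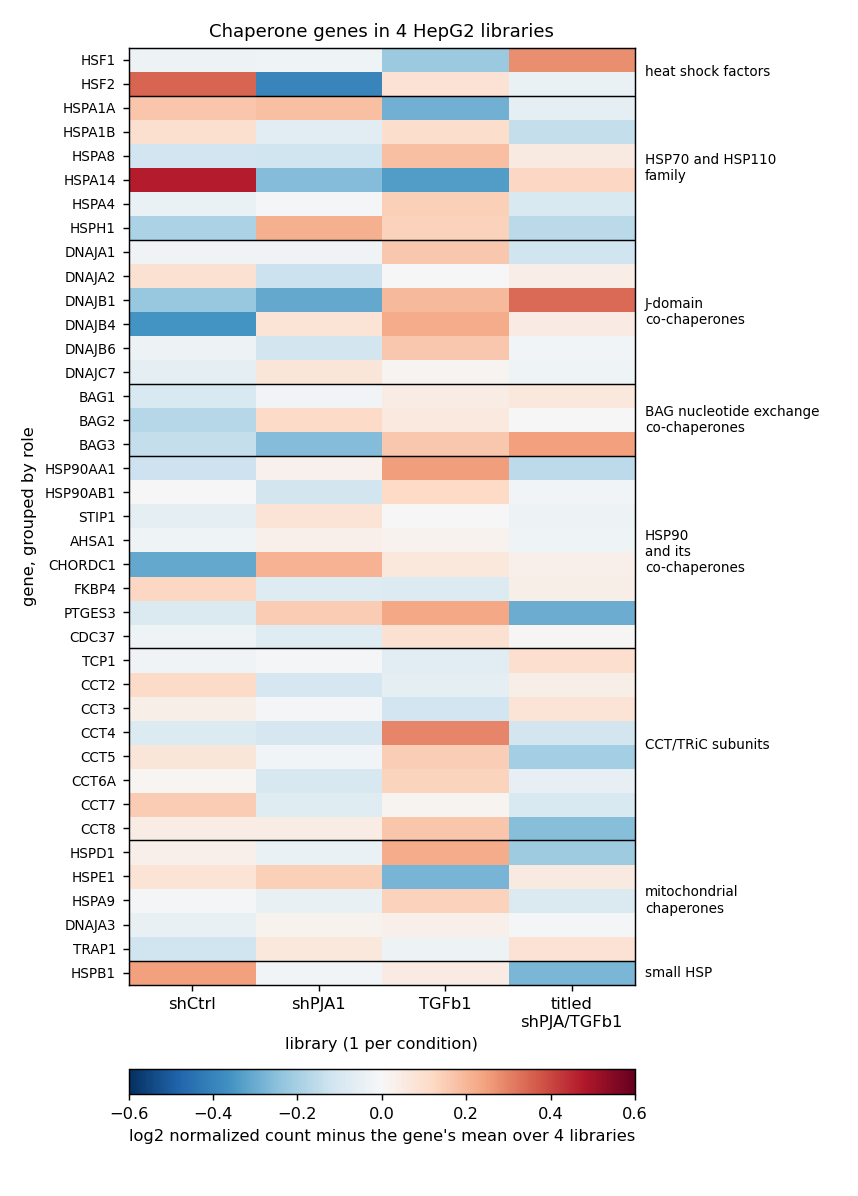
Heat map of the 39 members (vertical axis, grouped by role) in the 4 libraries (horizontal axis, 1 library per condition), coloured by the log2 normalized count minus the mean of that gene over the libraries, red for higher and blue for lower. DNAJB1 and BAG3 are highest in the double-titled library, HSPH1 and CHORDC1 are highest in shPJA1, and the strong colours of HSPA14 come from 13 to 27 reads per library.

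Some symbols share sequence with close copies, and how reads that fit several genes were counted is not given. HSPA1A shared 72.6% of its 50-base stretches with HSPA1B or other genes, HSPA1B 73.5%, HSPE1 27.2%, HSPD1 24.8%, DNAJB6 19.1%, HSP90AB1 18.8%, HSP90AA1 17.5% and HSPA8 15.4%. Values of these genes carry an uncertainty from this that the shares do not measure.

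Ratios are given with an exact 95% interval for 2 read counts, which covers counting error alone. The difference of largest size among the members with an interval away from 1 belonged to DNAJB1, a stress-inducible J-domain protein that delivers clients to HSP70. Its normalized count was 220 in shCtrl, 208 in shPJA1, 294 with TGFb1 and 326 in the double-titled library. Both libraries titled with TGFb1 were above both libraries without it. The ratio was 1.34 (1.13 to 1.59) for TGFb1 over shCtrl and 1.57 (1.29 to 1.90) for the double-titled library over shPJA1. Between libraries that differed by the hairpin it was 0.947 for shPJA1 over shCtrl and 1.11 for the other pair, both with intervals that held 1.

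HSPA8, the constitutive HSP70 that also uncoats clathrin vesicles, had normalized counts of 2181 in shCtrl, 2177 in shPJA1, 2672 with TGFb1 and 2451 in the double-titled library. The libraries without TGFb1 lay close together and both others lay above them. The ratio was 1.23 (1.16 to 1.29) for TGFb1 over shCtrl and 1.13 (1.06 to 1.2) for the double-titled library over shPJA1. For the double-titled library over TGFb1 it was 0.917 (0.865 to 0.972). BAG3, a nucleotide exchange factor that also steers clients to autophagy, had normalized counts of 113, 104, 140 and 148 in the same order of libraries. Its order of libraries was that of DNAJB1. The ratio was 1.24 (0.973 to 1.58) in the first pair, where the interval held 1, and 1.42 (1.07 to 1.88) in the second, each as deposited. Once a trend on GC content was removed, the sides changed places, with 1.355 (1.07 to 1.73) in the first pair and 1.33 (0.999 to 1.77) in the second.

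HSP90AB1 had normalized counts of 2598 in shCtrl, 2409 in shPJA1, 2825 with TGFb1 and 2570 in the double-titled library. The ratio for TGFb1 was 1.09 (1.03 to 1.14) in cells titled without the PJA1 hairpin and 1.07 (1.00 to 1.14) with it. Its ratio for the hairpin was 0.927 (0.876 to 0.981) without TGFb1 and 0.910 (0.859 to 0.963) with it. HSP90AB1 was thus higher in both TGFb1 pairs and lower in both hairpin pairs, each time by a small amount. Without the GC trend, its second TGFb1 ratio was 1.06 (0.994 to 1.13), an interval that holds 1.

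For counts over sets of genes, counting intervals were read where the mean normalized count reached 200. A 1.5-fold difference was read where it reached 20, on log2 of the normalized count plus 1. Intervals of single members are given at any mean. In both TGFb1 pairs together, 3 of 22 members, DNAJB1, HSPA8 and HSP90AB1, had intervals above 1, beside 1.89% of the 2062 genes of that mean. GC content moved with the ratios: across 2056 such genes, the difference between the TGFb1 log2 ratios had a Pearson r of 0.63 and a Spearman rho of 0.63 with transcript GC. These genes share the same 4 libraries, and r was 0.50 and rho 0.51 over the 38 members. With a trend on GC removed from each library, DNAJB1 and HSPA8 kept intervals above 1 in both pairs, beside 2.53% of genes, with DNAJB1 ratios of 1.43 and 1.5. In both hairpin pairs HSP90AB1 alone had intervals below 1, beside 0.388% of genes, and 0.535% with the trend removed. Counting intervals narrow as reads rise, and HSPA8 and HSP90AB1 had mean normalized counts of 2370 and 2601. The shares beside them cover all genes of a mean of at least 200 and were not matched on depth.

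**Figure D2:**
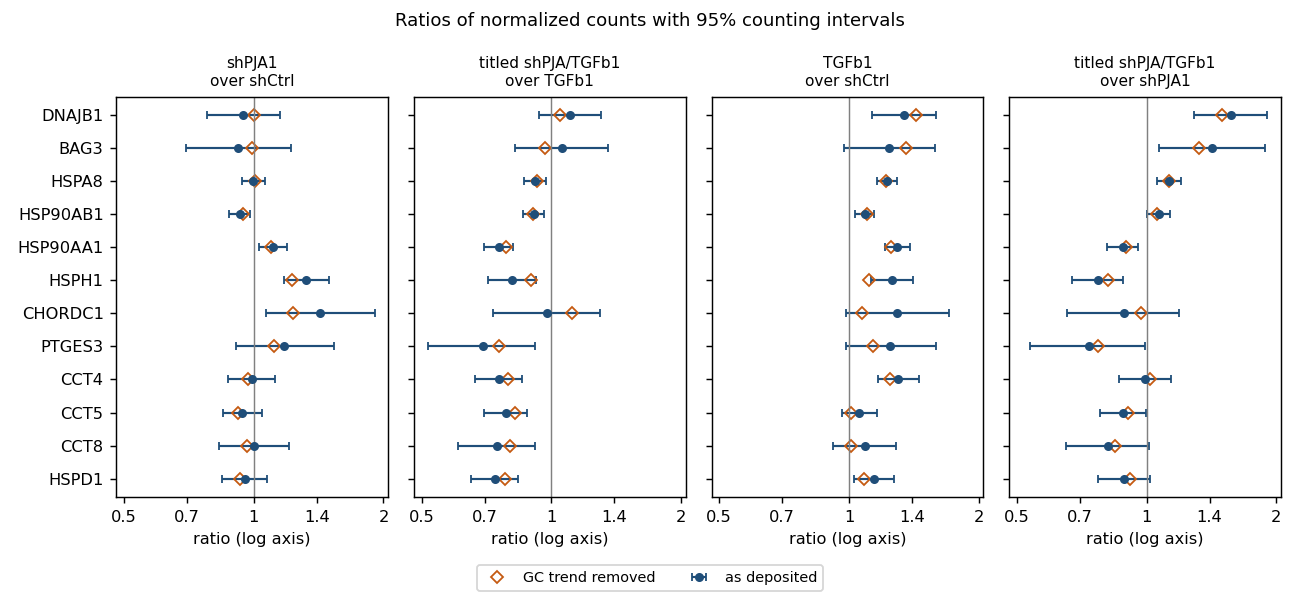
Ratios of normalized counts on a log axis for 12 members in the 4 pairs of libraries, with bars for the 95% counting interval and open diamonds for the ratio after a GC trend was removed. DNAJB1 and HSPA8 lie above 1 in both TGFb1 pairs, while HSPH1 and HSP90AA1 lie above 1 in TGFb1 over shCtrl and below 1 in the other TGFb1 pair.

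HSPA1A, HSPA1B and HSPB1, which are heat-inducible as well, did not share the DNAJB1 order. HSPA1A, an inducible HSP70, had normalized counts of 161 in shCtrl, 163 in shPJA1, 118 with TGFb1 and 139 in the double-titled library. It was lower in both libraries titled with TGFb1, with a ratio of 0.731 (0.586 to 0.913) for TGFb1 over shCtrl and 0.850 in the other pair, where the interval held 1. The first ratio was 0.812 (0.650 to 1.01) once the GC trend was removed. HSPA1B, its near-identical copy, was at 86.5, 77.4, 87.1 and 73.3 in the same order. HSPB1, a small heat shock protein that holds unfolded clients, was at 28.1, 23.4, 24.5 and 19.6, from 12 to 43 reads. No pair gave HSPA1B or HSPB1 an interval that left out 1.

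The heat shock factors themselves were low. HSF1 had normalized counts of 61.9 in shCtrl, 62.1 in shPJA1, 54.1 with TGFb1 and 76.6 in the double-titled library, and every interval held 1. HSF2, a relative that can join HSF1 in mixed trimers, was at 36.2, 21.6, 30.2 and 27.7. Its ratio for shPJA1 over shCtrl was 0.596 (0.335 to 1.05), from 24 and 31 reads, so the difference was within counting error, while with the GC trend removed it was 0.567 (0.313 to 0.980).

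HSPH1, an HSP110 protein that exchanges nucleotide on HSP70, had normalized counts of 501 in shCtrl, 664 in shPJA1, 630 with TGFb1 and 512 in the double-titled library. The shPJA1 and TGFb1 libraries were high, and shCtrl and the double-titled library were low. The ratio was 1.33 (1.17 to 1.5) for shPJA1 over shCtrl and 0.812 (0.714 to 0.921) for the double-titled library over TGFb1. For TGFb1 it was 1.26 (1.12 to 1.41) over shCtrl and 0.770 (0.673 to 0.880) in the pair titled with the hairpin. With the GC trend removed, 2 of these intervals held 1, at 1.12 (0.997 to 1.25) for TGFb1 over shCtrl and 0.898 (0.789 to 1.02) for the double-titled library over TGFb1. HSPA4, its HSP110 relative, was at 569, 580, 645 and 548, with its highest value in TGFb1. Its intervals left out 1 in both pairs with the TGFb1 library, and held 1 there without the GC trend. HSPA14, a ribosome-associated HSP70, was at 26.9, 16.2, 15.4 and 21.2, and each of its intervals held 1.

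HSP90AA1, the stress-inducible cytosolic HSP90, was at 1391 in shCtrl, 1544 in shPJA1, 1803 with TGFb1 and 1359 in the double-titled library. It had the same high and low libraries as HSPH1. The ratio was 1.30 (1.21 to 1.39) for TGFb1 over shCtrl and 0.880 (0.809 to 0.957) for the double-titled library over shPJA1. These opposite sides were shared by 2 of the 22 members and by 2.76% of all genes of that mean. With the GC trend removed, HSP90AA1 alone among the members kept them, at 1.25 (1.17 to 1.34) and 0.897 (0.825 to 0.975), beside 0.973% of genes.

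**Figure D3:**
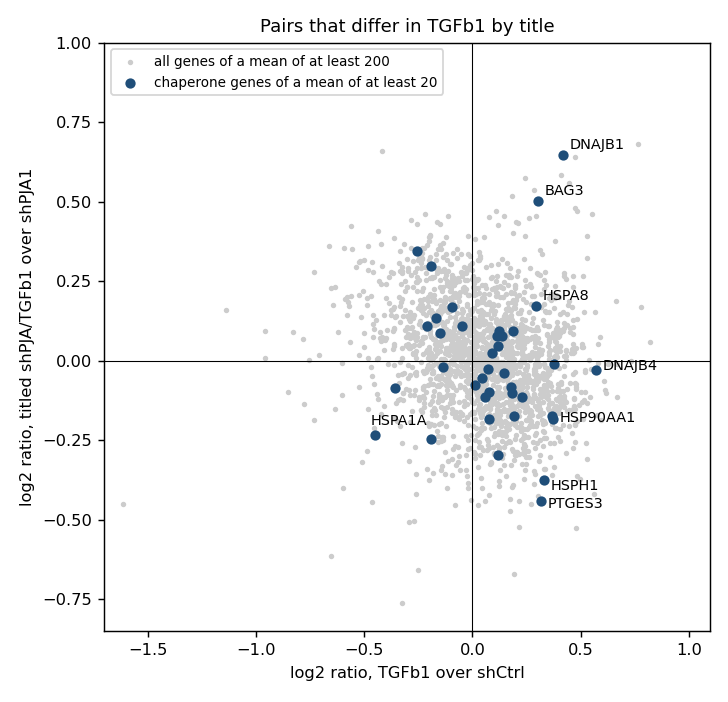
Log2 ratio of TGFb1 over shCtrl on the horizontal axis and of the double-titled library over shPJA1 on the vertical axis, with 1 grey point per gene of a mean of 200 or more and 1 blue point per member of a mean of 20 or more. DNAJB1 lies in the upper right, and HSPH1 and HSP90AA1 lie in the lower right. The axes share no library.

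The cofactors of HSP90 were mixed. CHORDC1, which binds the ATPase domain of HSP90, was at 87.7 in shCtrl, 125 in shPJA1, 113 with TGFb1 and 111 in the double-titled library. Its ratio for shPJA1 over shCtrl was 1.43 (1.07 to 1.92), and 1.23 (0.928 to 1.66) with the GC trend removed, which holds 1. PTGES3, or p23, which steadies the ATP-bound closed form of HSP90, was at 117, 138, 146 and 101.1. It was lowest in the double-titled library, with a ratio of 0.693 (0.516 to 0.918) to TGFb1 and 0.734 (0.537 to 0.992) to shPJA1, the second becoming 0.771 (0.563 to 1.04) without the GC trend. STIP1, which links HSP70 to HSP90, AHSA1, which speeds its ATPase, FKBP4, an immunophilin of steroid receptor complexes, and CDC37, which brings kinases, had intervals that held 1 in all 4 pairs. Their highest library was 1.04 to 1.16 times their lowest.

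Among J-domain proteins, DNAJA1 was at 871, 872, 990 and 813 in shCtrl, shPJA1, TGFb1 and the double-titled library, highest in TGFb1. Its ratio was 1.14 (1.04 to 1.24) for TGFb1 over shCtrl, which came to 1.04 (0.951 to 1.13) with the GC trend removed. For the double-titled library over TGFb1 the DNAJA1 ratio was 0.822 (0.742 to 0.908), and 0.894 (0.807 to 0.988) with that trend removed. DNAJA2 was at 553, 475, 518 and 533, with a ratio of 0.858 (0.757 to 0.974) for shPJA1 over shCtrl. Without the GC trend, the DNAJA2 intervals left out 1 in both TGFb1 pairs too, at 0.849 (0.759 to 0.9504) over shCtrl and 1.18 (1.03 to 1.36) over shPJA1. DNAJB4, a relative of DNAJB1, was at 49.1, 66.6, 73.5 and 65.2, and was lowest in shCtrl. The DNAJB4 ratio of 1.5 (1.05 to 2.17) for TGFb1 over shCtrl came to 1.22 (0.862 to 1.79) with the GC trend removed. DNAJB6, which limits polyglutamine aggregation, DNAJC7, BAG1 and BAG2 had intervals that held 1 in all 4 pairs.

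Subunits of CCT did not move as a block. CCT4 was at 524 in shCtrl, 518 in shPJA1, 681 with TGFb1 and 513 in the double-titled library, so that TGFb1 stood above the others. CCT3 was at 540, 525, 487 and 557, lowest in TGFb1. CCT2 was at 560, 483, 498 and 530, highest in shCtrl. The CCT4 ratio was 1.30 (1.17 to 1.45) for TGFb1 over shCtrl, and CCT2 was 0.890 (0.795 to 0.997) in that pair. For the double-titled library over TGFb1, CCT4 was 0.754 (0.664 to 0.855), CCT5 0.784 (0.699 to 0.877) and CCT8 0.749 (0.607 to 0.918), while CCT3 was 1.14 (1.01 to 1.30). For shPJA1 over shCtrl, CCT2 was 0.862 (0.761 to 0.977) and CCT7 0.856 (0.750 to 0.977). Once the GC trend was removed, the intervals of CCT3 and CCT7 held 1. TCP1, the alpha subunit, was at 479, 484, 464 and 522, and CCT6A ran from 499 to 584, with intervals that held 1 in each pair. Without the GC trend, TCP1 had a ratio of 1.195 (1.05 to 1.36) for the double-titled library over TGFb1, which leaves out 1. The median log2 ratio of the 8 subunits lay between -0.14 and 0.02 over the 4 pairs, and for TGFb1 over shCtrl it went from 0.02 to -0.03 when the GC trend was removed.

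In mitochondria, HSPD1 and HSPE1 form the ring and the lid of a chaperonin and are transcribed from a shared promoter region in opposite directions. The HSPD1 window printed above does not overlap the HSPE1 window. The other HSPD1 window does, and neither it nor the HSPE1 window held a match. HSPD1 was at 593 in shCtrl, 565 in shPJA1, 677 with TGFb1 and 500 in the double-titled library, and HSPE1 was at 66.6, 69.3, 51.8 and 65.2. TGFb1 was the highest library for HSPD1 and the lowest for HSPE1. The HSPD1 ratio was 1.14 (1.03 to 1.27) for TGFb1 over shCtrl, and 1.09 (0.978 to 1.21) with the GC trend removed. For the double-titled library over TGFb1 the HSPD1 ratio was 0.739 (0.650 to 0.838), and every HSPE1 interval held 1. HSPA9, the mitochondrial HSP70, ran from 1014 to 1183, with a ratio of 0.857 (0.782 to 0.937) for the double-titled library over TGFb1. Without the GC trend that ratio was 0.914, and the upper end of its interval reached 1.0004. DNAJA3, its J-domain partner, and TRAP1, the mitochondrial HSP90, had intervals that held 1 in all 4 pairs.

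Across the members, few were past 1.5-fold. For shPJA1 over shCtrl, 0 of 38 were higher, beside 3.21% of 8575 genes, and HSF2 was lower, beside 3.17%. For the double-titled library over TGFb1, 0 were higher or lower, beside 4.76% and 4.33%. For TGFb1 over shCtrl the counts were 0 and 0, beside 3.56% and 5.13%. For the double-titled library over shPJA1, DNAJB1 was higher, beside 3.52%, and 0 were lower, beside 4.33%. The members were thus no more often past this size than genes in general, but they were deeper. A mean of at least 200 was reached by 22 of the 38, beside 2062 of the 8575 genes. Depth matters for this rule: the TGFb1 log2 ratios differed by 1.5-fold downward in 10.3% of genes of a mean of 20 and 3.39% of a mean of 200. Shares matched on depth were not taken for the 4 pairs.

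By counting interval, 2 of 22 members lay above 1 for shPJA1 over shCtrl, beside 14.9% of 2062 genes, and 4 below, beside 9.89%. For TGFb1 over shCtrl, 10 lay above, beside 28.2%, and CCT2 below, beside 16.0%. With the GC trend removed, these were 5 above, HSPA8, DNAJB1, HSP90AA1, HSP90AB1 and CCT4, beside 16.8%, and 2 below, DNAJA2 and CCT2, beside 15.8%. For the double-titled library over TGFb1, 11 of 22 lay below, beside 17.9%, and CCT3 above, beside 14.4%. With the trend removed 8 remained below, HSPA8, DNAJA1, HSP90AA1, HSP90AB1, CCT4, CCT5, CCT8 and HSPD1, beside 8.85%. For the double-titled library over shPJA1, 3 lay above, beside 10.5%, and 3 below, beside 7.81%. TGFb1, the deepest library, held the highest value of 11 of the 22, beside 37.9% of genes, and the double-titled library, the shallowest, the lowest value of 10, beside 22.9%. Depth of the genes enters as well. For TGFb1 over shCtrl, intervals left out 1 in 24.2% of genes of a mean of at least 20 and 44.1% of at least 200. The part of library depth or gene depth in these counts was not tested.

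**Figure D4:**
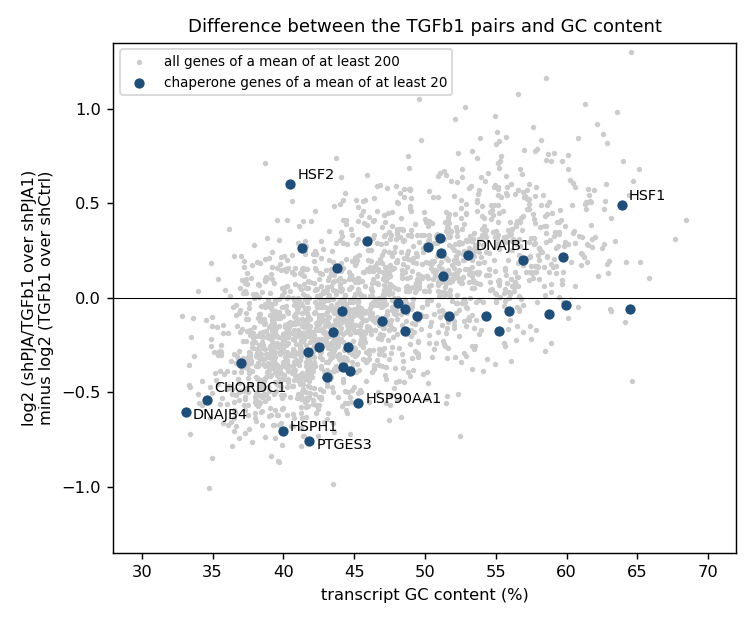
Difference between the TGFb1 log2 ratios of the 2 pairs against transcript GC content in percent, with 1 point per gene and members coloured. Genes of low GC mostly lie below 0 and genes of high GC above it, and HSPH1 (39.95% GC) and HSP90AA1 (45.2% GC) lie on the low side.

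The median log2 ratio of the 38 members was -0.00077 for shPJA1 over shCtrl, -0.10 for the double-titled library over TGFb1, 0.12 for TGFb1 over shCtrl and -0.03 for the double-titled library over shPJA1. Over all 8575 genes, most of them less deep than the members, the medians were 0.01, -0.01, 0.02 and 0.00. At a mean of at least 200, TGFb1 over shCtrl gave 0.119 for members and 0.059 for all genes. With the GC trend removed these were 0.059 and 0.010. The double-titled library over TGFb1 gave -0.130 and -0.035, and -0.128 and 0.012 with the trend removed. The TGFb1 library enters both of these pairs, so their values of opposite sign share a library.

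A model in which hairpin and TGFb1 effects, both by title, add up was fitted to the recovered reads of 10210 genes with edgeR's quasi-likelihood test. It left 1 residual degree of freedom, which holds the departure from additivity and not a spread between replicate libraries. The spread of each gene was estimated with information shared across genes. The p-values and SE below thus do not measure how far libraries of 1 condition vary. Over all genes 1 was called for the hairpin and 4 for TGFb1. At a Benjamini-Hochberg adjusted p under 0.05, 0 of 39 members were called for either term, and DESeq2 also called 0. Without adjustment, edgeR gave 0 members a p under 0.05 for the hairpin, beside 2.3% of genes, and 1 for TGFb1, beside 3.75%. That member was DNAJB1, at a log2 change of 0.52 ± 0.18 (SE), with an edgeR p of 0.00376 and an adjusted p of 0.786. By the same unadjusted limit DESeq2 gave DNAJB1 alone for TGFb1, beside 0.225% of genes, and 0 members for the hairpin, beside 0.0392%.

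Other genes of the chaperone network were read from lists of 105 genes, of which 81 had a mean of at least 20. Past 1.5-fold were 1 higher and 2 lower for shPJA1 over shCtrl, beside 3.21% and 3.17% of 8575 genes. For the double-titled library over TGFb1, 2 were higher and 3 lower, beside 4.76% and 4.33%. For TGFb1 over shCtrl there were 2 and 1, beside 3.56% and 5.13%. For the double-titled library over shPJA1 there were 2 and 6, beside 3.52% and 4.33%. Of 16 genes listed as other heat-inducible targets of HSF1, 9 had that mean and 0 were past 1.5-fold in any pair. With 3.17% to 5.13% of all genes past that size each way, 9 genes are too few for this count to tell. The list was drawn up by name and includes CHAC1 and the heat shock factor HSF4, and induction by heat was not measured here. Their median log2 ratio was -0.04 for TGFb1 over shCtrl and 0.01 for the double-titled library over shPJA1, and DNAJB1 was at 0.42 and 0.65 on that scale. ZFAND2A, a heat-inducible zinc finger gene, was at 167 in shCtrl, 125 in shPJA1, 163 with TGFb1 and 124 in the double-titled library. It was lower in both libraries titled with the hairpin, with ratios of 0.749 (0.589 to 0.952) and 0.761 (0.583 to 0.983). HSPA5, the HSP70 of the endoplasmic reticulum, was at 906, 768, 977 and 914 and was lowest in shPJA1. RUVBL2, an ATPase that works with HSP90 in assembling large complexes, was at 105, 60.3, 83.1 and 75.0, with a ratio of 0.573 (0.412 to 0.796) for shPJA1 over shCtrl.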

How the data were processed

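RNA of HepG2 cells was sequenced in 4 libraries. Per the submitters' processing notes, the tools were TopHat2 2.0.10, Cufflinks, Trimmomatic and FastQC, with no order or settings. The table's build and annotation: not given in the sources used here. The deposited table is named FPKM, but in each library 100% of its values are an integer times 1 step (tolerance 1e-06). The deposited signal is thus whole reads divided by a size factor per library (0.614 for the double-titled library, 0.856 for shCtrl, 1.11 for shPJA1 and 1.76 for TGFb1), and median-ratio factors recomputed from the reads came out equal. The planned unit was FPKM, so the size rule was applied to normalized counts with a pseudocount of 1, which understates changes of low genes.

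The members and all lists were chosen with earlier results of these data known. Groups follow titles, including that of the double-titled library (shPJA/TGFb1), whose treatment is given as water. Genes of a mean of at least 20 were kept, and at least 200 for counts of intervals over sets of genes. Pairs of single libraries have no test, and exact conditional 95% intervals of 2 Poisson counts cover counting error only. A count of 0 allows up to 3 reads, a normalized count of 1.71 in TGFb1 to 4.89 in the double-titled library. GC content and length came from GENCODE release 29 transcripts (98.7% of genes matched), and the GC trend was a lowess of span 0.3. edgeR 4.0.16 (R 4.3.3, TMM, quasi-likelihood, Benjamini-Hochberg adjustment, genes of at least 40 reads) and DESeq2 1.42.0 were run on recovered reads. Other tools were Python 3.11.15, scipy 1.17.1, statsmodels 0.14.6, pandas 2.3.3, numpy 2.4.6 and matplotlib 3.10.9, and steps were tested on simulated data. Members chosen for description were up to 4 highest and 4 lowest per pair among those with an interval away from 1, and 13 set by name. Not every ratio of these members is printed. The alternatives were other pseudocounts, filters, folds, scalings, removal of the GC trend and, after seeing the data, intervals shifted by that trend.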

Additional observations from a re-analysis of the deposited data

Results flagged for a closer look

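The log2 ratio for TGFb1 of HSPH1 was 0.71 lower in the pair titled with the PJA1 hairpin than in TGFb1 over shCtrl (a difference of -0.71), and that of HSP90AA1 was 0.56 lower (a difference of -0.56). Each gene lay above 1 in the first pair and below 1 in the second, by intervals of counting error. With the GC trend removed the differences were -0.45 and -0.48. With 1 library per condition these differences were not tested, and the same numbers are the differences between the hairpin pairs.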

How the results depend on the processing

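No paired analysis was possible because each condition has 1 library. Leaving out a library removes the pairs that use it and leaves the other pairs as they are, and the additive fit would then have 0 residual degrees of freedom, so it gives no alternative value. The median over all members kept its sign in all 48 alternatives, counted over the comparisons together, with a largest shift of 0.0451 on the log2 scale. Some medians were small, such as -0.00077 for shPJA1 over shCtrl. For the mean of both TGFb1 pairs the median fell from 0.039 to 0.0078 with the GC trend removed and to 0.0085 with upper-quartile scaling. No scaling moved the median of all genes by more than 0.1. Of 936 member ratios, 29 changed sign, 20 of them with the GC trend removed, 5 with upper-quartile scaling and 4 with total scaling, and each of these had an interval that held 1. By size, 934 stayed within their interval and 2 moved beyond it, those of HSPH1 and DNAJA1 for TGFb1 over shCtrl with the GC trend removed, at log2 0.16 and 0.05.

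For shPJA1 over shCtrl, the 1 lower member past 1.5-fold became 0 with a pseudocount of 10, with a mean of at least 200 or at 2-fold, and 2 with no filter. For TGFb1 over shCtrl the count of lower members went from 0 to 1 with no filter. For the double-titled library over shPJA1, the 1 higher member, DNAJB1, became 0 at 2-fold and 0 with the GC trend removed, its ratio then being 1.495 against a limit of 1.5. At 1.2-fold the higher members numbered 4 for shPJA1 over shCtrl (17.3% of all genes), 2 for the double-titled library over TGFb1 (19.9%), 9 of 38 for TGFb1 over shCtrl (21.4%) and 4 for the double-titled library over shPJA1 (17.8%). Lower members at 1.2-fold numbered 9 (20.5%), 2 (19.8%) and 3 (18.2%) in the last 3 of these. On the mean of both pairs, 1.2-fold gave 2 lower for the hairpin (9.46%), and 3 higher (9.71%) and 1 lower (11.5%) for TGFb1. With the GC trend removed, intervals above 1 for TGFb1 over shCtrl went from 10 to 5 and those below from 1 to 2, and members above 1 in one TGFb1 pair and below in the other went from 2 to 1. With that trend as an offset, edgeR called 0 members and gave BAG3, DNAJB1, HSPA1A and HSPA8 an unadjusted p under 0.05 for TGFb1, beside 4.85% of genes, with an adjusted p of 0.521 for DNAJB1.

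Depth limits what can be said of members with few reads, such as HSF2, HSPB1, HSPA14, HSPE1 and DNAJB4.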
